A study of Mus musculus with 17 samples.

Results

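The livers of Lean and Fat mice were compared for 7 cytochrome P450 genes of drug and steroid metabolism, namely Cyp2b9, Cyp2b10, Cyp2b13, Cyp3a11, Cyp3a41, Cyp2a4 and Cyp2c40. They were chosen by the probe names on the array, with 7 genes found of 278 mouse genes measured. The Lean and Fat lines are inbred by the study's account. They came from 1 base population of CBA, JU and CFLP origin after divergent selection on body fat for more than 60 generations. Each is thus a single selected line rather than a defined allele. All mice were males of 14 weeks on maintenance chow, killed after a fast of 4 h, with no drug or inducer given. From either line 10 mice entered, and their liver RNA was hybridised as 10 pairs, each holding 1 mouse of either line, on 17 two-colour cDNA arrays. In 7 pairs both dye orientations were hybridised, and in pairs 4, 9 and 10 only a single one. Ratios are given as log2 of Lean over Fat, so that values below 0 mean a higher signal in Fat mice. Each array carried 3 spots of every probe considered here.

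These enzymes place oxygen on foreign compounds and on steroids in the endoplasmic reticulum of hepatocytes. Genes of the Cyp2b and Cyp3a families are classical targets of 2 nuclear receptors, CAR (Nr1i3) and PXR (Nr1i2), which bind DNA as partners of the retinoid receptor Rxra and respond to drugs, bile acids and steroids. In the mouse liver several of them also differ between the sexes, and Cyp2b9, Cyp2b13, Cyp3a41, Cyp2a4 and Cyp2c40 are known as genes with higher expression in females. In its table of changed genes the study listed the Cyp2a4 probe as Cyp2a5, the Cyp2c40 probe as Cyp2c69 and the Cyp2b13 probe as a further Cyp2b9 probe, and the close copies cannot be told apart by these names. Per its text, probes of the Cyp2a, Cyp2b, Cyp2c and Cyp3a families also bind transcripts of their relatives, so each ratio below belongs to a probe and may hold signal of other genes of its family.

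The start regions are shown first because several of these genes are near copies of each other. These windows are not the sequences of the cDNA probes, so their likeness does not measure cross-hybridisation. A link between the start regions and the pattern across pairs was not tested. All 7 genes matched a promoter entry of RefSeq on GRCm38.p6, with the Cyp3a41 probe taken as Cyp3a41a. The Cyp2b9 and Cyp2b13 windows, of 300 bases each, differed at 2 bases. These are T48C and C104T, with the base of Cyp2b9 first and positions counted from 1 at the 5′ end of the stretch below. The first 140 bases are printed 5′ to 3′, the differing bases in capitals, at chr7:26173159-26173298 (plus strand) for Cyp2b9 and at chr7:26061245-26061384 (plus strand) for Cyp2b13. The third gene, Cyp2b10, follows from chr7:25897408-25897547 (plus strand).
Cyp2b9: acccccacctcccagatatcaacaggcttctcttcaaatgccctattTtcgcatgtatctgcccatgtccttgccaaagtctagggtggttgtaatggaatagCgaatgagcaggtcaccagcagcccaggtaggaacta
Cyp2b13: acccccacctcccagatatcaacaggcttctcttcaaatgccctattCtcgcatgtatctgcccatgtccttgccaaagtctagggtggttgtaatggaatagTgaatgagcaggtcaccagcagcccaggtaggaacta
Cyp2b10: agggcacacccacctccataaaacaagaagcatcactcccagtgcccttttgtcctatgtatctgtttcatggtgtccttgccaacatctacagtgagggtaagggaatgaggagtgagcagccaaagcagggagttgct

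Over the 250 bases before the start, a global alignment gave 99.2% identity between Cyp2b9 and Cyp2b13 and 71.0% between either of them and Cyp2b10. Cyp3a11 and Cyp3a41a were 72.9% identical, and Cyp2a4 was 97.6% identical to Cyp2a5. Between the families identity ran from 46.98% to 54.96% over the members. The letters AGGTCA, a core sequence bound by nuclear receptors, were searched on both strands and stood in the windows of Cyp2b9, Cyp2b13 and Cyp3a11, against 14.02% of all 32851 RefSeq windows of that length.

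The letters CAAAGTCC, which form part of the element bound by the liver factor Hnf4a, were chosen after the windows had been read. They stood in 4 of the 7 windows, against 1.20% of all windows on both strands. The stretches around them are printed with the match in capitals because they are shared by genes of 3 different subfamilies. They lie at chr5:145879906-145880013 (minus strand) for Cyp3a11, chr5:145720174-145720281 (minus strand) for Cyp3a41a, chr7:26307087-26307191 (plus strand) for Cyp2a4 and chr19:39812815-39812909 (minus strand) for Cyp2c40. A match of letters is a description only.
Cyp3a11: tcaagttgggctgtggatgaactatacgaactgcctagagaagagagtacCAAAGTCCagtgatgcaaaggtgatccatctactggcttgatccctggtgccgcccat
Cyp3a41a: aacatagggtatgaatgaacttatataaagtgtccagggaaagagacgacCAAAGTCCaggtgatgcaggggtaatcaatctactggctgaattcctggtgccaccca
Cyp2a4: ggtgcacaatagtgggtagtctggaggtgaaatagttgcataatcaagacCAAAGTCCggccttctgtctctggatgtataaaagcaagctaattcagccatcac
Cyp2c40: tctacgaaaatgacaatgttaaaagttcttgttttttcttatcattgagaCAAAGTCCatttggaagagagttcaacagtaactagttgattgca

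Across the series, 34.9% to 78.8% of the 855 gene spots of an array were above background in both channels, with a median of 58.5%. The limit for this was the local background plus 2 of its standard deviations. Of 12 hepatocyte markers each was above background on 10 to 17 arrays in the Lean channel and 11 to 17 in the Fat channel. The 2 ileum markers reached 1 to 4 arrays in either channel, but other non-hepatocyte markers reached more. The 7 adrenal and gonad markers ran from 7 to 16 arrays in Lean and from 6 to 13 in Fat. The 6 adipose tissue markers ran from 3 to 17 in either channel. The 3 probes of 2 macrophage markers ran from 2 to 17 in Lean and from 1 to 17 in Fat. Pairs 1, 2, 3, 5 and 9 were on slides of consecutive numbers, called series A, and pairs 4, 6, 7, 8 and 10 on other slides, called series B. On the Lean-Cy3 array of pair 2, 143 spots lay in a local background over 5 times the array's median, among them 1 spot each of Cyp2a4, Cyp2b13 and Cyp3a41. Fewer cells of a type and less RNA per cell cannot be told apart in whole liver. Precision is limited by there being 10 pairs.

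The signal of the 3 Cyp2b probes was close to background, and more so in the Lean channel. For Cyp2b9 the foreground was 1.41 times its local background in the Lean channel (median of 17 arrays, from 1.09 to 2.08) and 2.02 times in the Fat channel (from 1.10 to 6.09). Most of its spots were above background on 5 of 17 arrays in the Lean and 12 of 17 in the Fat channel. Cyp2b10 was above background on 9 and 14 arrays and Cyp2b13 on 11 and 15, in that order. The other 4 probes were above background in both channels on all 17 arrays.

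Among these, Cyp3a11 and Cyp3a41 lay at the other end, far above background. Cyp3a11 had a median signal of 267 times background in Lean and 264 times in Fat, and 20 of its 102 spot readings, on 9 arrays, were at the scanner's upper limit. Cyp3a41 had medians of 119 and 136 times background, with 9 readings at the limit. Cyp2a4 stood at 4.36 times background in Lean and 5.04 in Fat, and Cyp2c40 at 12.2 and 10.1. All readings of these Cyp3a probes at the limit were in Cy5, which was the Fat channel on some arrays and the Lean channel on others. A saturated channel reads too low, and the part of saturation in the Cyp3a values and in their dye differences was not tested.

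**Figure D1:**
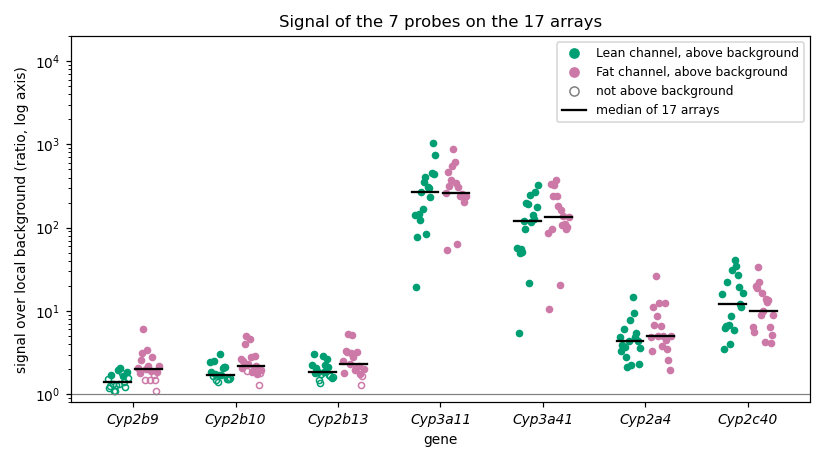
Foreground over local background of each probe on the 17 arrays, in the Lean and the Fat channel, on a log axis. Each point is the mean of 3 spots, filled where most spots were above background, and the black bars are medians; Cyp2b9 had a median of 1.41 in Lean and 2.02 in Fat, and Cyp3a11 lay above 19 on each array.

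None of the 7 genes passed the adjusted threshold between the lines. With limma and Benjamini-Hochberg adjustment over all 284 probes, 10 probes passed an adjusted p under 0.05, a share of 3.52%, and none of them was a member. At an unadjusted p under 0.05, 5 members lay lower in Lean mice (limma), namely the 3 Cyp2b genes, Cyp3a11 and Cyp3a41, where 5.28% of all probes did. Cyp2c40 lay higher at that level, as did 9.86% of all probes. Student's t-test over the 10 pairs, the test named in the methods, gave the same 5 members lower in Lean before adjustment. It gave 4.58% of all probes lower in Lean at that level, and 0 members after adjustment. Cyp2a4 (p = 0.155) and Cyp2c40 (p = 0.0891) did not reach an unadjusted p under 0.05 by this t-test. The study's table of changed genes lists Cyp2a4 as lower and Cyp2c40 as higher in Lean, under the names given above. It does not list Cyp3a11, so the 2 sets differ. Of the 7 members, 6 had a mean ratio below 0 and the median of all 7 was -0.24, whereas the median over all probes was 0.04 and 30.6% of them lay below 0. The direction of the 7 genes was known when they were chosen, and no test was made over them as a list.

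**Figure D2:**
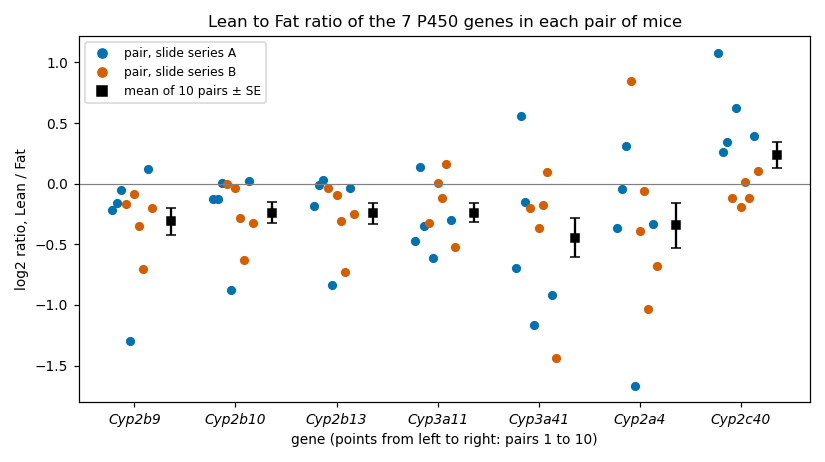
The log2 ratio of Lean over Fat in each of the 10 pairs of mice, coloured by slide series, with the mean and its standard error as black squares. Pair 5, which also had the lowest median over all probes (-0.19), gave the lowest ratio of Cyp2b9, Cyp2b10, Cyp2b13, Cyp3a11 and Cyp2a4, and the 5 pairs of series A lay above all pairs of series B for Cyp2c40.

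Cyp2b9, a steroid hydroxylase with higher expression in females, had pair ratios from -1.30 in pair 5 to 0.12 in pair 9 with a median of -0.18. They lay below 0 in 9 of 10 pairs, a pattern shown by 2.11% of all probes at 9 or more pairs. Its mean was -0.31 (SE 0.11, 95% interval -0.56 to -0.07), or 1.24-fold higher in Fat mice (limma, p = 0.0162, adjusted p = 0.214). The exact sign-flip permutation test over the 10 pairs gave p = 0.00781, two-sided. Without pair 5 the mean was -0.20. With plain subtraction of the background it was -1.18 (adjusted p = 0.0637), and without background subtraction -0.48, which passed (adjusted p = 0.0138). The size of this ratio thus moved with the treatment of a signal near background.

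The low ratios of Cyp2b9 in pairs 5 and 8 came with a high Fat signal. Their Lean signal over background lay on either side of its median of 1.41. The levels given next were built from the mean of both channels and the ratio. A low ratio by itself thus lowers the Lean and raises the Fat level. Relative to the median gene spot of the array, on the log2 scale, the Fat level of pair 5 was 0.23 and its Lean level -1.07, the highest and the lowest of the 10 pairs, where the other pairs ran from -0.68 to 0.01 in Fat and from -0.73 to -0.32 in Lean. On the 2 arrays of pair 5 the Fat signal was 6.09 and 2.83 times background, against 1.32 and 1.81 in the Lean channel, which was not above background on either. In pair 8 the Fat signal was 3.399 and 2.196 times background and the Lean signal 1.30 and 1.58. Both arrays of either pair gave a ratio below 0, from -1.83 to -0.64, whichever line carried Cy5.

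Cyp2b10, the best known CAR target of the mouse liver, had pair ratios from -0.88 in pair 5 to 0.02 in pair 9, with a median of -0.12. In 8 of 10 pairs they lay below 0, and pairs 3, 4 and 9 were within 0.03 of it. Its mean of -0.24 (SE 0.09, 95% interval -0.43 to -0.05) amounts to 1.18-fold more in Fat mice (limma, p = 0.0174, adjusted p = 0.214), and the exact sign-flip permutation test gave p = 0.0137. With plain background subtraction the mean was -0.53 (adjusted p = 0.27), and without any -0.29 (adjusted p = 0.084).

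Cyp2b13, the near copy of Cyp2b9 in its start region, ranged from -0.83 in pair 5 to 0.03 in pair 3, with a median of -0.13 and 9 of 10 pairs below 0. These are means over the arrays of a pair, and its 2 arrays had the same sign in only 3 of 7 swapped pairs. The mean was -0.24 (SE 0.09, 95% interval -0.43 to -0.05), again 1.18-fold higher in Fat mice (limma, p = 0.0155, adjusted p = 0.214; exact sign-flip permutation test, p = 0.00586). It passed without background subtraction, at -0.33 (adjusted p = 0.0433), and lay at -0.52 with plain subtraction (adjusted p = 0.251). For each of the 3 Cyp2b genes, pairs 5 and 8 held the lowest and the next lowest ratio. The median over all probes was also lowest in pair 5, at -0.19, against 0.00 in pair 8. With each pair's median subtracted, pair 5 stood at -1.11 for Cyp2b9, -0.69 for Cyp2b10 and -0.64 for Cyp2b13, and pair 8 at -0.71, -0.63 and -0.73, so that pair 8 was then the lowest for Cyp2b13.

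Cyp3a11, a major drug-oxidising enzyme of mouse liver and a PXR target, had a narrower spread, from -0.61 in pair 5 to 0.17 in pair 8 with a median of -0.31. In 7 of 10 pairs it lay below 0, and pairs 2, 6 and 8 were above it. With the pair medians subtracted the lowest was pair 10, at -0.59, and pair 5 stood at -0.42. The mean was -0.24 (SE 0.08, 95% interval -0.41 to -0.06), or 1.18-fold more in Fat mice (limma, p = 0.0111, adjusted p = 0.196; exact sign-flip permutation test, p = 0.0313). It passed in 1 alternative, with array weights, at -0.28 (adjusted p = 0.0341). With the authors' value table, which holds this probe on 12 of 17 arrays, it was -0.49 (adjusted p = 0.16), and with LOWESS on all gene spots -0.41 (adjusted p = 0.265).

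Cyp3a41, a female-predominant relative of Cyp3a11, had the widest spread of the Cyp2b and Cyp3a genes, from -1.44 in pair 10 to 0.56 in pair 2 with a median of -0.28. The mean was -0.45 (SE 0.16, 95% interval -0.80 to -0.09), or 1.36-fold higher in Fat mice (limma, p = 0.0166, adjusted p = 0.214), with 8 of 10 pairs below 0 (exact sign-flip permutation test, p = 0.0488). The high value of pair 2 rested on 1 damaged spot. Its Lean-Cy3 array gave 1.20 with all spots and 0.16 without that spot, and its Lean-Cy5 array gave -0.08. With damaged spots left out of all arrays, an alternative chosen after the data were seen, pair 2 stood at 0.04 and the mean at -0.50 (limma, adjusted p = 0.0716). Without pair 2 altogether the mean was -0.56 (adjusted p = 0.052), and without background subtraction it passed, at -0.50 (adjusted p = 0.0433).

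The dye also moved with the Cyp3a41 ratio. Over the 7 swapped pairs the Lean-Cy5 array lay on average 0.40 below the Lean-Cy3 array (SD 0.50), lower in 6 of 7 pairs (exact sign-flip permutation test, two-sided, p = 0.0469, unadjusted for the 7 members). The damaged spot of pair 2 carried part of this: without damaged spots the difference of that pair went from -1.28 to -0.24 and the mean of the 7 to -0.26 (SD 0.32), still lower in 6 of 7 (same test, exact p = 0.0469). In the swapped pairs alone, where the dyes balance, the mean was -0.27 (limma, adjusted p = 0.637). This mean and the dye fit given below kept all spots. Pair 2 stood at 0.56 with all spots and at 0.04 with damaged spots left out. Pairs 9 and 10, hybridised only with Lean in Cy5, stood at -0.91 and -1.44. In a fit with a dye coefficient over 17 arrays, 91 probes, or 32% of all, had a dye effect past the adjusted threshold, and 0 of the 7 members did (for Cyp3a41 -0.55, p = 0.0548, adjusted p = 0.116, limma). In that fit Cyp2b9 passed between the lines, at -0.36 (limma, adjusted p = 0.033), and Cyp3a41 stood at -0.35 (limma, adjusted p = 0.0999). It set the correlation between arrays of a pair at -0.08 over all probes, so swap arrays counted nearly as separate samples. For Cyp2b9, however, both arrays of pair 5 were low, at -1.83 and -0.77. With the 10 pairs as samples Cyp2b9 did not pass (limma, adjusted p = 0.214).

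**Figure D3:**
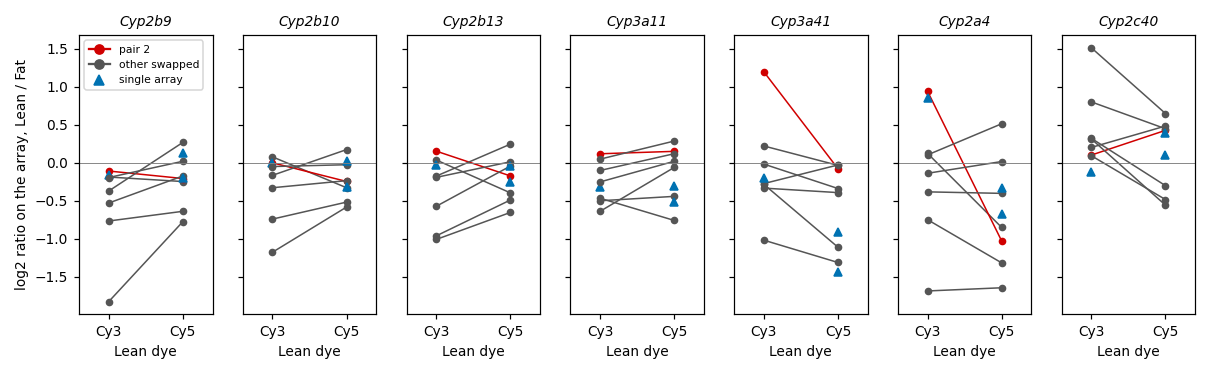
Log2 ratio of Lean over Fat on each array by the dye of the Lean sample, with lines joining the 2 arrays of a swapped pair, pair 2 in red and pairs hybridised once as triangles. For Cyp3a41 the ratio was lower with Lean in Cy5 in 6 of 7 pairs, and the drop of pair 2 from 1.20 to -0.08 is mostly that of its damaged spot, without which it starts at 0.16. With all spots, the 2 arrays of a swapped pair had the same sign in 3 of 7 pairs for Cyp2b13. They did in 4 of 7 for Cyp2a4 and Cyp2c40, and in 5 of 7 for the other members.

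Cyp2a4, a steroid 15-alpha-hydroxylase by its textbook name, varied most between pairs of the 7 genes, with a standard deviation of 0.70. Its ratios ran from -1.67 in pair 5 to 0.85 in pair 4, with a median of -0.35, and lay below 0 in 8 of 10 pairs. The mean was -0.34 (SE 0.19, 95% interval -0.74 to 0.06), or 1.27-fold more in Fat mice (limma, p = 0.0875, adjusted p = 0.452; exact sign-flip permutation test, p = 0.168). Without pair 5 it was -0.19 (limma, adjusted p = 0.461). In pair 5 both arrays were far below 0, at -1.69 and -1.64, with a Fat signal of 26.4 and 12.3 times background against 3.68 and 9.45 in Lean. In pair 2 the arrays gave 0.94 and -1.03, and 0.94 became -0.14 without its damaged spot. With damaged spots left out of all arrays, chosen after the data were seen, pair 2 went from -0.04 to -0.59. The mean was then -0.40 (limma, p = 0.0483, adjusted p = 0.298).

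Cyp2c40, an arachidonic acid oxygenase, was the 1 member with a mean ratio above 0. Its pairs ran from -0.20 in pair 6 to 1.08 in pair 1 with a median of 0.18, and 7 of 10 lay above 0. The mean was 0.24 (SE 0.11, 95% interval 0.00 to 0.48), or 1.18-fold higher in Lean mice (limma, p = 0.0488, adjusted p = 0.322; exact sign-flip permutation test, p = 0.0801), and 0.14 without pair 1 (adjusted p = 0.595).

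The ratio of Cyp2c40 was higher in slide series A than in B, a difference that did not pass the adjusted threshold. In series A the 5 pairs ran from 0.26 to 1.08 with a mean of 0.54, and in series B the 5 pairs ran from -0.20 to 0.11 with a mean of -0.06. The 2 series did not overlap for this gene, as for 1.06% of all probes, and they overlapped for the other 6 members. The difference between the series was 0.60 (SE 0.15, limma, p = 0.00153, adjusted p = 0.436), and 0 of 284 probes passed for it, with 11 at an unadjusted p under 0.05. In series A alone the ratio had an adjusted p of 0.0803 (limma). The other 6 members lay below 0 in both series. In A and B, in that order, Cyp2b9 stood at -0.32 and -0.30, Cyp2b10 at -0.22 and -0.25, Cyp2b13 at -0.21 and -0.28, Cyp3a41 at -0.47 and -0.42, Cyp3a11 at -0.32 and -0.16, and Cyp2a4 at -0.42 and -0.26. The Cyp2c40 ratio also moved with the dye. Swapped pairs 6, 7 and 8 of series B gave 0.09, 0.32 and 0.31 with Lean in Cy3. With Lean in Cy5 they gave -0.48, -0.30 and -0.56. Swapped pairs 1, 2, 3 and 5 of series A lay above 0 on both arrays. Over the 7 swapped pairs the mean difference, Cy5 less Cy3, was -0.38 (SD 0.50, exact sign-flip permutation test, p = 0.0938), below 0 in 5. Whether chance, the dye, the slides or the mice on them account for the Cyp2c40 values cannot be told apart.

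The 3 Cyp2b genes had the highest correlations across the pairs. Over the 10 pairs the ratios of Cyp2b10 and Cyp2b13 had a Pearson correlation of 0.97 (permutation p = 0.00012, adjusted p = 0.00126) and a Spearman correlation of 0.87 (permutation p = 0.00228, adjusted p = 0.0203). Cyp2b9 correlated with Cyp2b10 at 0.96 (permutation p = 8e-05, adjusted p = 0.00126; Spearman 0.93, permutation p = 0.00033, adjusted p = 0.00693). With Cyp2b13 it correlated at 0.93 (permutation p = 0.00024, adjusted p = 0.00168; Spearman 0.85, permutation p = 0.0029, adjusted p = 0.0203). All 21 pairs of members were tested, with 100000 resamples, two-sided, and adjustment over the 21. Without pairs 5 and 8, the farthest from the median, these correlations were 0.87, 0.76 and 0.71, in that order. Over all 40186 pairs of gene probes the median correlation was 0.30 and the 95th percentile 0.84, and 2.11% lay above 0.9. Every probe shares the arrays and their normalization. The start regions of Cyp2b9 and Cyp2b13 were 99.2% identical, and those of either with Cyp2b10 71.0%. The part of probes binding each other's transcripts in these correlations, as in those within the Cyp3a family, was not tested.

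**Figure D4:**
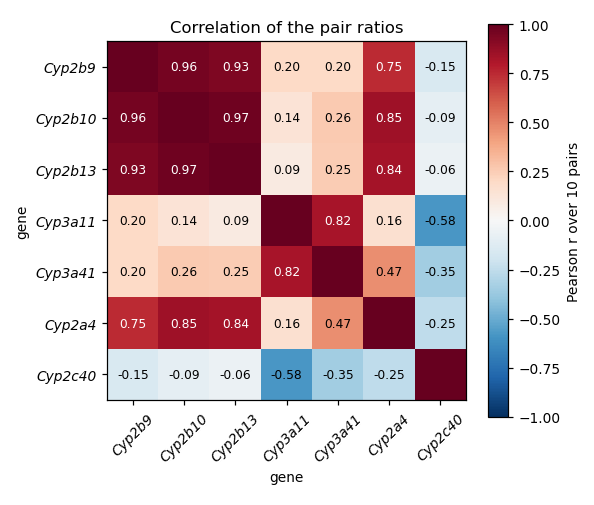
Pearson correlation of the log2 ratios over the 10 pairs for each pair of the 7 genes. The 3 Cyp2b genes correlated at 0.93 to 0.97, Cyp3a11 with Cyp3a41 at 0.82, and Cyp3a11 with Cyp2c40 at -0.58.

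Cyp3a11 and Cyp3a41 correlated at 0.82 (permutation p = 0.00393, adjusted p = 0.0138), a value reached by 6.26% of all pairs of gene probes, with a Spearman correlation of 0.76 that did not pass the adjustment (permutation p = 0.0147, adjusted p = 0.0616). Without pairs 2 and 8 the Pearson value was 0.68, and with damaged spots left out it was 0.79. Between the Cyp2b and the Cyp3a genes the correlation was 0.09 to 0.26 in all 6 combinations, with adjusted p from 0.772 to 0.849 (permutation), below the median of 0.30 over all pairs of probes. These values hang on single pairs: with 1 pair left out the lowest ran from -0.46 to -0.05, each without pair 5, and the highest from 0.34 to 0.54. Pair 8 held the next lowest Cyp2b10 ratio, -0.63, and the highest Cyp3a11 ratio, 0.17. Pair 5 was low for both, at -0.88 and -0.61.

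**Figure D5:**
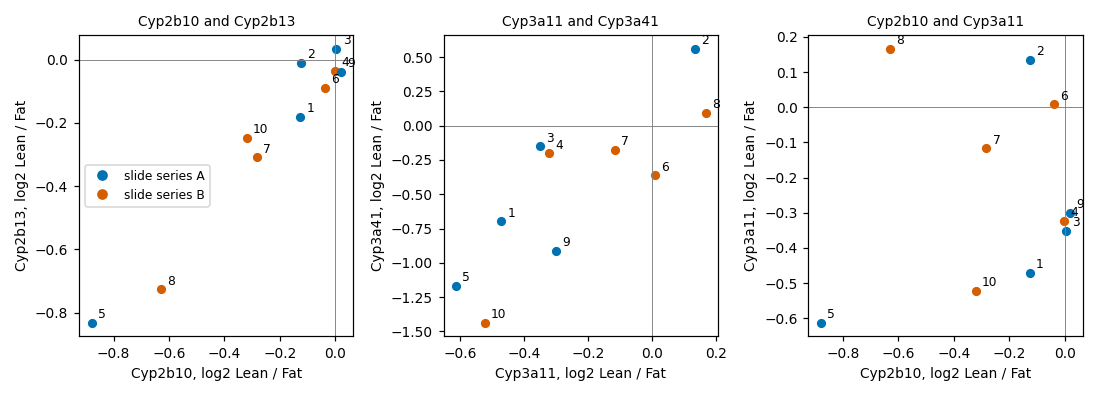
Log2 ratios of Lean over Fat in the 10 pairs, numbered and coloured by slide series, for Cyp2b10 against Cyp2b13, Cyp3a11 against Cyp3a41, and Cyp2b10 against Cyp3a11. The points of the first panel lie along a line with r = 0.97, those of the last panel scatter with r = 0.14, and pair 8 is low for Cyp2b10 and high for Cyp3a11.

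Cyp2a4 went with the Cyp2b genes, in part through the extreme pairs. Its correlation was 0.85 with Cyp2b10 (permutation p = 0.00115, adjusted p = 0.00604; Spearman 0.75, adjusted p = 0.0616), 0.84 with Cyp2b13 (permutation p = 0.00145, adjusted p = 0.00609; Spearman 0.83, adjusted p = 0.0251) and 0.75 with Cyp2b9 (permutation p = 0.0135, adjusted p = 0.0405; Spearman 0.58, adjusted p = 0.234). Without pairs 5 and 8 these became 0.49, 0.49 and -0.03, so the relation with Cyp2b9 rests on those pairs. Cyp2c40 had correlations below 0 with the other 6 members, from -0.58 with Cyp3a11 (permutation p = 0.0781, adjusted p = 0.205) to -0.06 with Cyp2b13, and none passed. In all, 7 of 21 combinations passed by Pearson and 4 by Spearman. The lowest Pearson correlation that passed, 0.75, was reached by 11.3% of all pairs of gene probes, and 3 of the 7 lay below their 95th percentile.

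The probes most like each member were sought among the other 283 after each pair's median over all probes had been subtracted. Cyp2b10 and Cyp2b13 were most like each other (r = 0.96), and Cyp2b9 was most like Cyp2b10 (r = 0.91). Next in order came 2 circadian clock genes, Per1 for Cyp2b9 (r = 0.89) and Per3 for Cyp2b13 (r = 0.89), both ahead of the correlation of Cyp2b9 with Cyp2b13 (r = 0.88). Both Per probes were themselves near background, with Per1 above it on 4 arrays in Lean and 2 in Fat and Per3 on 3 and 1. Without pairs 5 and 8 these correlations were 0.41 and 0.63. Cyp3a41 was most like a further Cyp3a gene, Cyp3a13 (r = 0.92). Cyp3a11 was most like Cyp3a41 (r = 0.80) and Cyp1b1 (r = 0.68, and 0.40 without that subtraction), whose probe was above background on 6 arrays in Lean and 5 in Fat. Cyp2a4 was most like the bile acid uptake carrier Slc10a1 (r = 0.85) and the sterol exporter Abcg5 (r = 0.84), and Cyp2c40 was most like the apolipoprotein genes Apoc3 (r = 0.89) and Apoc1 (r = 0.82). These are the highest of 283 values each over 10 pairs and carry no test.

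The receptors of these genes did not pass the threshold between the lines. Nr1i3 (CAR) had a ratio of -0.15 (SE 0.11, adjusted p = 0.584, limma) with 6 of 10 pairs below 0, and Nr1i2 (PXR) -0.03 (SE 0.08, adjusted p = 0.866, limma) with 4 of 10 below 0. Their partner Rxra stood at -0.01 (adjusted p = 0.94, limma). None of 9 other regulators measured, among them Hnf4a and Nr3c1, passed, and their ratios lay between -0.14 and 0.16.

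Of 10 further CAR or PXR target genes listed, 8 were measured, and 1 was lower and 1 higher in Lean mice. Slco1a4, an uptake carrier of organic anions, fell by 0.56 in Lean mice (SE 0.12, adjusted p = 0.0132, limma), or 1.48-fold more in Fat, in 10 of 10 pairs (exact sign-flip permutation test, p = 0.00195, the smallest that 10 pairs allow). Cyp1a2, an oxidase of aromatic amines, rose by 0.51 (SE 0.09, adjusted p = 0.00301, limma), also in 10 of 10 pairs. The median of the 8 genes was -0.07. Among 12 further P450 genes of drug metabolism, Cyp1a2 was the 1 that passed, and their median of 0.03 lay close to that of all probes, 0.04, with ratios from -0.15 for Cyp3a13 to 0.51. Cyp3a25, another gene of the Cyp3a family, stood at 0.08 (SE 0.09, adjusted p = 0.726, limma).

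Of 3 further genes with higher expression in female mouse liver, Slco1a4 was lower in Lean mice and Cyp17a1 and Cyp39a1 stood at -0.02 each. The 2 genes with higher expression in males, named here after their values were seen, also lay below 0. Slco1a1, a male-predominant anion carrier, had a ratio of -0.30 (SE 0.10, p = 0.00965, adjusted p = 0.183, limma), below 0 in 9 of 10 pairs. Pair 2, the 1 pair above 0, stood at 0.57 and so brought the mean closer to that of no difference. Its Lean-Cy3 array gave 1.59 with a damaged spot and -0.09 without it. Cyp7b1, an oxysterol hydroxylase, had a ratio of -0.12 (SE 0.13, adjusted p = 0.711, limma). Among the 12 hepatocyte markers 2 passed, both higher in Lean mice, with Cyp8b1, the sterol 12-alpha-hydroxylase of bile acid synthesis, at 0.52 (SE 0.08, adjusted p = 0.00208, limma) and Cyp1a2. The median of these markers was 0.13, and their part in the members' ratios was not tested.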

How the data were processed

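Spot and local background intensity in either channel was read from the images by the authors with Array-Pro Analyzer and deposited without normalization. A second, deposited table gives log2 ratios for which the authors used OWNormalize, with LOWESS on spike-in controls after removal of low-quality spots by a criterion not given in the sources used here. The labels name the channel of each line, and 3 further arrays failed the authors' quality control. Mean pixel intensities were background-corrected by normexp (offset 50), normalized within each array by limma's control method (span 0.3) on 198 luciferase and calibration spike-in spots, and averaged over spots and then over the arrays of a pair. Ratios of dim probes are understated by this offset. The 10 pair ratios of 284 probes were compared with 0 by a two-sided test in limma 3.58.1 (R 4.3.3), at a Benjamini-Hochberg adjusted p of 0.05, for probes with at least 5 pairs. Sign-flip tests used all 1024 sign patterns. Correlations used numpy 2.4.6 and alignments Biopython 1.88. The steps were tested on simulated data, with true differences on bright probes only and the same background in both channels. Recovery of differences near background was not tested.

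The members and lists were chosen with earlier results of these data known. The rule named all members, the receptors Nr1i3 and Nr1i2, the genes of the lists past the adjusted threshold, the largest ratio of the lists in each direction, and the 2 probes most like each member, of which 1 is not reported here. Alternatives changed the background correction, normalization, source of the values, spots, dye, slide series, unit, test, weights and pairs. Damaged spots left out and median pixels were added after the data were seen. Promoter sequences are from RefSeq (GRCm38.p6).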

Additional observations from a re-analysis of the deposited data

Results flagged for a closer look

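Of 14 genes examined for a pair far from the others, 1 stood out by Dixon's criterion at the 95% level, where chance alone gives about 1 in 20. Slco1a1, the male-predominant anion carrier, had a ratio of 0.57 in pair 2, with a gap to the next pair of 0.54 of its whole range. The Lean-Cy3 array of that pair gave 1.59 with its 3 spots and -0.09 without the 1 spot in the damaged area, and the Lean-Cy5 array gave -0.46. None of the 7 members met the criterion, although pair 5, whose median over all probes was also the lowest (-0.19), held the lowest ratio of 5 of them.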

How the results depend on the processing

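The means of 6 members kept their direction in all 29 alternatives, and Cyp2c40 turned to -0.064 in slide series B. No member passed in most alternatives, but 3 did without background subtraction (Cyp2b9, Cyp2b13 and Cyp3a41), 1 with a dye coefficient (Cyp2b9) and 1 with array weights (Cyp3a11). The fit with a dye coefficient counted the arrays of a swapped pair nearly as separate samples. Leaving out each pair in turn gave 0 members called and 7 to 11 probes called, against 10. That count was 6 with plain subtraction, 5 with median centring, 5 in dye-swapped pairs, 3 in series A, 2 in series B, 6 with the methods' t-test and 18 with array weights. Of those called, 8 were higher and 2 lower in Lean mice here, 3 and 3 with plain subtraction, 8 and 7 without subtraction, 3 and 2 with median centring, and 8 and 4 in the authors' value table. The median over all probes moved by less than 0.1 under every scaling. The median correlation of the 21 member pairs was 0.20, and 0.35 with LOWESS on all gene spots. Signals near background limit the size of the Cyp2b ratios. Saturated readings of Cyp3a11 and Cyp3a41 were kept throughout, and their effect was not tested.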
